A study of Mus with 96 samples.

Results

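The comparison set 4 livers of Hep-Bmal1KO mice against 4 livers of Hep-Bmal1WT littermates, all fed the choline-deficient high-fat diet (cdHFD) and collected at ZT6, 6 h after lights on. The 8 libraries were chosen by the genotype, diet and time given in their titles, and they are 8 of the 96 libraries of the series. A further 8 libraries of the same genotypes and diet, taken 12 h away at ZT18 in the dark phase, were used to ask which of the differences at ZT6 were not seen at the opposite time of day. Hep-Bmal1KO mice carried AlbCre/+ and Bmal1flx/flx, and Hep-Bmal1WT mice carried Alb+/+ with the same Bmal1flx/flx alleles, all on a C57BL/6J background. The mice were 8 to 10 weeks old, were kept under alternating 12 h of light and 12 h of dark, and ate the cdHFD (60% fat, 2% cholesterol and 0.17% methionine, without choline) for 2 weeks. Each library came from 1 mouse, and each of the 4 groups held 2 males, given here as replicates 1 and 2, and 2 females, given as replicates 3 and 4. The Cre recombinase is driven by the albumin promoter, which is active in hepatocytes, so that the other cells of the liver keep a working Bmal1. Bmal1 is listed under its older symbol, Arntl.

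BMAL1 pairs with CLOCK or NPAS2 and switches on genes that carry E-box elements, among them the Per and Cry repressors, Nr1d1 and Nr1d2 (REV-ERB alpha and beta), Dbp, Tef and Ciart. REV-ERB receptors repress, and ROR receptors activate, a second set of genes that includes Arntl itself, Npas2, Clock, Cry1 and Nfil3. In mouse liver E-box genes such as Dbp and Nr1d1 are high in the light phase and the REV-ERB targets are low then, so ZT6 lies near the trough of Arntl and ZT18 near its higher levels. A choline-deficient diet limits the synthesis of phosphatidylcholine, which the liver needs to export triglyceride, and fat collects in hepatocytes.

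The 8 libraries of ZT6 held 5872198 to 7200236 counts assigned to genes, and the 16 libraries of both times 5872198 to 9170873. Values are given in the order male, male, female, female. Of 55487 genes listed, 15548 passed the filter of 100 counts over the 96 libraries and were tested. Each library was given a position between the Hep-Bmal1WT and Hep-Bmal1KO medians of its own time (with that library left out), by 10 clock genes and, separately, by 20 other genes chosen at the other times. None of the 16 libraries went against its label on both scales, although 2 Hep-Bmal1WT females of ZT18 stood nearer Hep-Bmal1KO on the clock genes alone, at 0.617 and 0.624 on a scale from 0 (Hep-Bmal1WT) to 1 (Hep-Bmal1KO). Elsewhere in the diet 3 of the 48 libraries went against their label (Hep-Bmal1WT replicate 3 at ZT10, Hep-Bmal1WT replicate 1 at ZT14 and Hep-Bmal1KO replicate 1 at ZT14). They entered no difference reported here but widened the spread that all 48 cdHFD libraries share, and the main counts are therefore given with and without them. Hepatocyte markers summed to 80547 to 116130 counts scaled to library size (CPM) in the livers of ZT6 and overlapped between the genotypes. The library names in the labels pair a letter with a number, and no number was shared by the genotypes, so that whatever this number stands for and genotype cannot be told apart.

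At ZT6, 110 of the 15548 genes differed between Hep-Bmal1KO and Hep-Bmal1WT livers, which is 0.707% of the genes tested (edgeR quasi-likelihood test, Benjamini-Hochberg adjusted p under 0.05). Of these, 73 were higher in Hep-Bmal1KO livers (0.47%) and 37 were lower (0.238%). The clock genes Arntl, Npas2, Clock and Cry1, the sterol-pathway gene Insig2, the melatonin receptor Mtnr1a, genes of glucose, choline and fat handling, and genes expressed by ductular cells stood among the higher genes. The lower genes included the output factors Dbp and Tef, both REV-ERB genes, glycogen synthase Gys2 and the cytochrome P450 Cyp2a5. The median log2 fold change was 1.44 in the 73 higher genes and -0.90 in the 37 lower genes, beside a median of 0 over all genes tested, with a median standard error (SE) of 0.248. Without the 3 libraries against their label, 219 genes were called (1.41%), 150 higher (0.965%) and 69 lower (0.444%), and all 110 genes were among them. The 4 Hep-Bmal1KO values did not overlap the 4 Hep-Bmal1WT values in 107 of the 110 genes, against 7.69% of all genes tested. The same 8 libraries chose these genes, so little overlap was bound to follow and this count is no separate support. Fitted log2 fold changes reached 5.20 higher and -4.03 lower among genes with reads in both genotypes. A further 3 genes had no read in any library of 1 genotype, such as Celsr2 with 0 reads against 20 in Hep-Bmal1KO livers, at least 6.09-fold higher against a floor of 3 counts over the group. Celsr2 was named after its values were seen.

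Arntl (ENSMUSG00000055116, chr7:113178471-113314126 on GRCm38) checks the labels only in part, since the deleted exon is internal and the reads come from the 3′ end of the transcript. Its CPM at ZT6 was 0.303, 0.65, 0.799 and 2.56 in Hep-Bmal1WT livers and 6.53, 4.43, 4.02 and 4.6 in Hep-Bmal1KO livers. Every knockout liver thus had more 3′ reads of Arntl than every wild-type liver at the trough of the gene, 4.53-fold on average (log2 fold change 2.18 ± 0.46 SE, adjusted p = 0.0105). At ZT18 the order was the opposite, with 25.4, 23.5, 20.9 and 21.00 CPM in Hep-Bmal1WT and 9.39, 12.4, 6.84 and 14.6 CPM in Hep-Bmal1KO livers and no overlap (log2 fold change -1.07 ± 0.31, adjusted p = 0.238). The difference at ZT6 minus that at ZT18 was 3.25 ± 0.56 on the log2 scale and passed the test (adjusted p = 0.00467). Without the 3 libraries against their label the deficit at ZT18 was also called (adjusted p = 0.0426, range over 17 alternatives 0.00476 to 0.577), which made Arntl a gene called at both times in opposite directions. The excess at ZT6 was not called when Hep-Bmal1WT replicates 1, 2 or 3 or Hep-Bmal1KO replicate 1 were left out, nor in females alone (log2 fold change 1.36, adjusted p = 0.582, range over 18 alternatives 1e-04 to 0.582), with log2 fold changes from 1.36 to 3.50 over all alternatives.

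The partners of BMAL1 moved the same way at ZT6, so that 3 of 3 activators were higher, beside 0.47% of all genes. Npas2, the paralog of CLOCK, was read 6 times in the 4 Hep-Bmal1WT livers together, at 0, 0.162, 0.639 and 0.16 CPM, and at 9.41, 6.98, 10.4 and 10.8 CPM in the Hep-Bmal1KO livers. Its gene was close to silent in every wild-type liver and was read in every knockout liver (log2 fold change 5.20 ± 1.10, adjusted p = 0.0139, 1.15e-08 without the 3 libraries, range over 18 alternatives 1.15e-08 to 0.244). Leaving out Hep-Bmal1WT replicate 1, 2 or 4 ended its call, which was also lost in males alone and in females alone (adjusted p = 0.115 and 0.244). Clock itself rose less, from 11.2 ± 1.96 CPM (SD, n = 4) to 20.5 ± 2.46, a 1.83-fold difference (adjusted p = 0.0097). At ZT18 the log2 fold changes of Npas2 and Clock were 0.89 ± 0.66 and 0.24 ± 0.18, neither called, and the interval of Npas2 at that time ran from -0.45 to 2.23.

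Among the 8 repressors of the clock 1 was higher and 1 lower at ZT6, beside 0.47% and 0.238% of all genes. Cry1 (ENSMUSG00000020038, chr10:85131700-85185054), a cryptochrome that closes the loop on BMAL1, stood at 6.82, 3.57, 5.59 and 10.6 CPM in Hep-Bmal1WT and 17.2, 12.1, 27.3 and 24.4 CPM in Hep-Bmal1KO livers, 3.03-fold higher without overlap (adjusted p = 0.000551). Ciart, also called Chrono, a repressor of BMAL1 driven by E-boxes, stood at 12.3, 14.1, 8.63 and 11.05 CPM against 1.7, 4.16, 2.85 and 2.44 CPM and was 4.12-fold lower (log2 fold change -2.04 ± 0.46, adjusted p = 0.0172). Per1, Per2 and Bhlhe40 had log2 fold changes of -0.41, -0.41 and -0.45 and were not called. Per3 had -1.17 ± 0.37 with no overlap between the genotypes, 15.9, 12.7, 15.2 and 12.97 CPM against 3.4, 4.3, 11.4 and 6.49 CPM, and an adjusted p of 0.14. Cry2 and Bhlhe41 were not called either, with log2 fold changes of 0.28 ± 0.19 and -0.73 ± 0.85.

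Both REV-ERB genes, nuclear receptors that carry the second loop, were lower. Nr1d1 stood at 28.3, 25.5, 45.6 and 30.6 CPM in Hep-Bmal1WT and 13.5, 16.8, 13.7 and 9.47 CPM in Hep-Bmal1KO livers, 2.43-fold lower (adjusted p = 0.00583), and Nr1d2 was 2.19-fold lower (log2 fold change -1.13 ± 0.29, adjusted p = 0.0478). The call of Nr1d2 was close to the threshold and held in 6 of 18 alternatives. Rora, which encodes a ROR receptor, had a log2 fold change of 0.37 ± 0.21 and was not called.

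**Figure D1:**
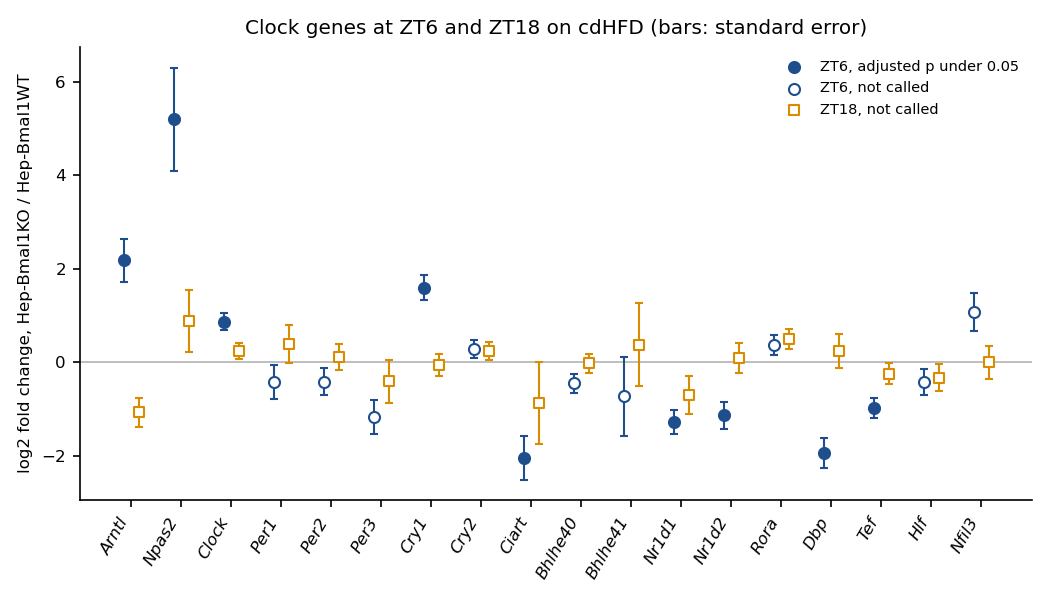
Log2 fold change (Hep-Bmal1KO over Hep-Bmal1WT, bars: SE) of the clock genes on the x axis, with circles for ZT6 (filled where the adjusted p was under 0.05) and squares for ZT18. The circles of Arntl, Npas2, Clock and Cry1 lie above 0 and those of Ciart, Nr1d1, Nr1d2, Dbp and Tef below it, while no square was called.

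The PAR bZIP factors and their antagonist NFIL3 act on daily genes of detoxification and lipid metabolism through D-box elements. Of these 4 genes 2 were lower, beside 0.238% of all genes. Dbp (ENSMUSG00000059824, chr7:45705100-45710203) was the lower gene with the smallest p, at 183, 207, 207 and 229.6 CPM in Hep-Bmal1WT and 26.5, 56.5, 70.7 and 62.1 CPM in Hep-Bmal1KO livers. The lowest wild-type liver had more than the highest knockout liver by a wide margin, and the mean was 3.84-fold lower (log2 fold change -1.94 ± 0.31, adjusted p = 0.000606). Tef was 1.97-fold lower, with 84.6, 84.5, 75.1 and 84.1 CPM against 25.9, 35.4, 52.9 and 52.8 CPM (adjusted p = 0.019). Hlf (-0.41 ± 0.27) and Nfil3 (1.08 ± 0.41) were not called, and their groups overlapped. None of the clock genes described here was called at ZT18 in the full set.

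Desi2, which encodes a peptidase of the desumoylating family, had the smallest p of all. Its CPM was 30.5, 37.8, 30.4 and 35.2 in Hep-Bmal1WT livers and 73.8, 67.3, 74.5 and 74.01 in Hep-Bmal1KO livers (log2 fold change 1.11 ± 0.14, adjusted p = 6.87e-07), and the call held in all 18 alternatives. Insig2 (ENSMUSG00000003721, chr1:121304353-121332662), an endoplasmic reticulum protein that holds SREBP precursors back when sterols are high, was 2.61-fold higher. The 4 wild-type livers lay within 110.0 to 116 CPM, and the knockout livers had 338, 297, 332 and 217 CPM (log2 fold change 1.39 ± 0.19, adjusted p = 2.15e-05). Mtnr1a, the melatonin receptor 1A, was scarce in Hep-Bmal1WT livers, at 1.97, 0.975, 0.639 and 0.961 CPM, and stood at 8.49, 7.65, 4.86 and 5.68 CPM in Hep-Bmal1KO livers, 5.78-fold higher (adjusted p = 9.47e-05).

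Pnrc1, a coactivator of nuclear receptors, had 76.5, 55.7, 110.5 and 69.6 CPM in Hep-Bmal1WT and 206, 172, 178 and 161 CPM in Hep-Bmal1KO livers, 2.3-fold higher (adjusted p = 9.47e-05). Lgalsl, a galectin-like gene, had 14.1, 7.96, 12.1 and 11.05 CPM and 38.7, 21.9, 29.1 and 33.7 CPM, 2.72-fold higher (adjusted p = 0.000126). Slc45a3, a member of a sugar transporter family, stood within 9.43 to 11.9 CPM in the wild-type and 20.3 to 22.6 CPM in the knockout livers (log2 fold change 1.07 ± 0.18, adjusted p = 0.000551). In these 3 genes, as in Clpx, Dtx4 and Leo1, the genotypes did not overlap. Clpx, the unfoldase of the mitochondrial ClpXP protease, was 2.7-fold higher (73.99 ± 8.61 against 200.1 ± 33.3 CPM, SD, n = 4 each, adjusted p = 0.000551). Dtx4, a Deltex ubiquitin ligase, and Leo1, a subunit of the PAF1 elongation complex, were 2.25-fold and 2.14-fold higher (adjusted p = 0.000551 and 0.000677). Klhdc8a was 2.83-fold higher (adjusted p = 0.0102).

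**Figure D2:**
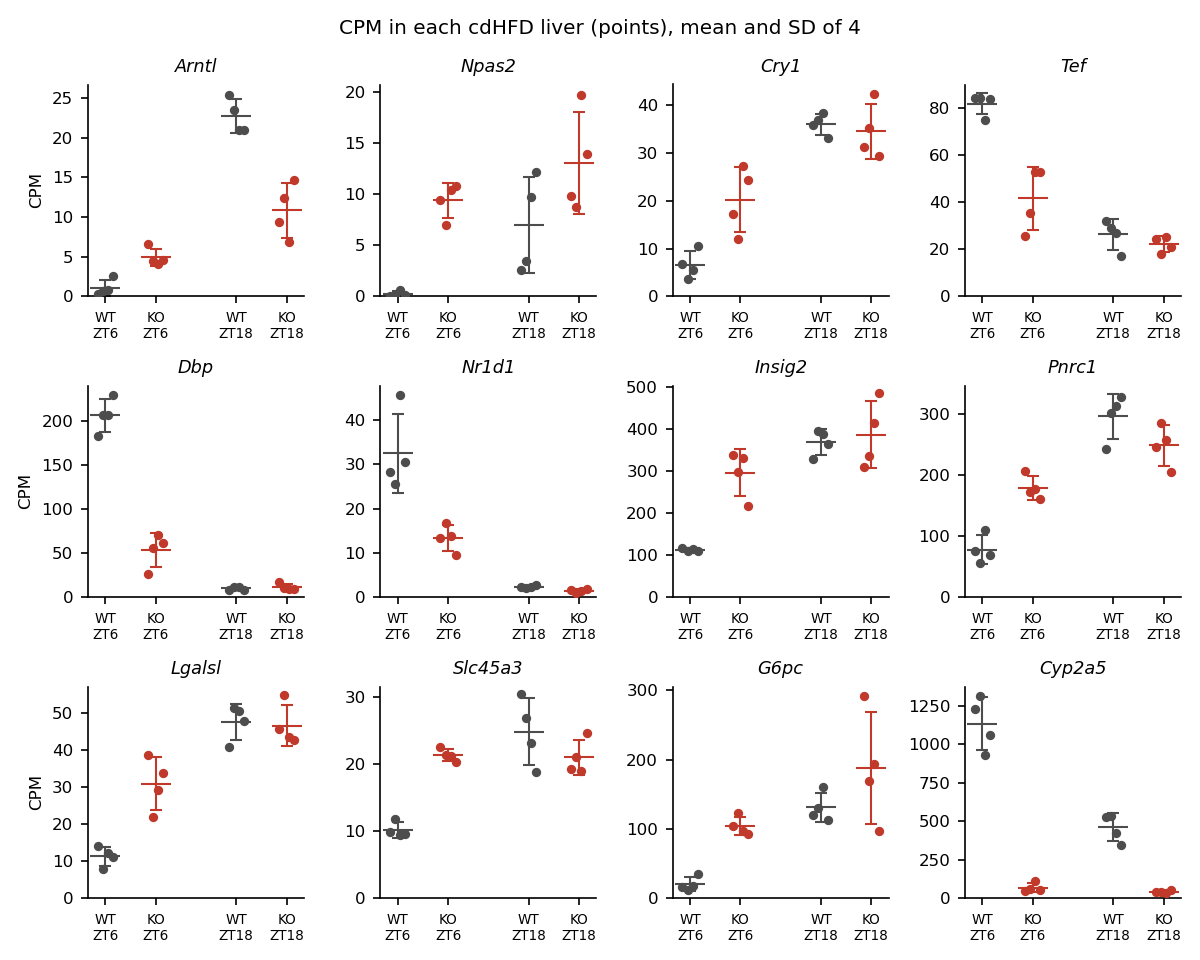
CPM (y axis, a separate linear scale from 0 for each gene) of 12 genes in each liver at ZT6 and ZT18, with the mean and SD of 4 (grey: Hep-Bmal1WT, red: Hep-Bmal1KO). At ZT6 the 2 genotypes do not overlap in any of the 12 genes, while at ZT18 they overlap in all but Arntl, Nr1d1 and Cyp2a5.

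Among the lower genes outside the clock, Cyp2a5 (ENSMUSG00000005547, chr7:26835339-26843264), a cytochrome P450 that oxidizes coumarin and nicotine, showed the greatest fold among genes with reads in both genotypes. Its CPM was 1231, 1312, 928 and 1059 in Hep-Bmal1WT and 48.1, 63.2, 113 and 53.7 in Hep-Bmal1KO livers, 16.4-fold lower (log2 fold change -4.03 ± 0.79, adjusted p = 0.00621). The adjacent paralog Cyp2a4, whose sequence is nearly identical, had 281, 288, 416 and 525 CPM against 22.1, 25.6, 116 and 70.4 CPM and was not called (-2.70 ± 0.89), and reads of the pair may have been divided between them. Gys2, the liver glycogen synthase and a known target of CLOCK, fell from 131, 141, 152 and 159 CPM to 48.7, 74.9, 75.4 and 75.9 CPM (log2 fold change -1.09 ± 0.24, adjusted p = 0.021). Coq10b, a coenzyme Q binding protein of mitochondria, was 2.09-fold lower, at 46.5, 50.7, 42.4 and 48.7 CPM against 17.5, 22.02, 24.1 and 26.7 CPM (adjusted p = 0.00128). Slc5a6, the sodium-dependent transporter of biotin and pantothenate, was 2.08-fold lower (adjusted p = 0.014), and Arrdc3, an alpha-arrestin, was 2.39-fold lower (adjusted p = 0.031).

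Mcm10, which loads DNA polymerase alpha at replication origins, was 4.04-fold lower, from 16.01 to 30.7 CPM in Hep-Bmal1WT to 3.01 to 6.9 CPM in Hep-Bmal1KO livers (adjusted p = 0.013). The uracil-DNA glycosylase Ung was also lower, 1.68-fold (adjusted p = 0.0483). Fam47e was 4.91-fold lower, Azin1, an inhibitor of antizyme in polyamine metabolism, 1.66-fold and the Rab GTPase-activating gene Tbc1d16 1.74-fold. Azin1 had 72.1 ± 4.68 CPM in Hep-Bmal1WT and 43.5 ± 5.03 CPM in Hep-Bmal1KO livers, and Fam47e 18.4 ± 1.29 and 3.77 ± 1.26 CPM (SD, n = 4 each).

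Genes of known pathways were then counted by list, to be read beside the 0.47% of all genes called higher and the 0.238% called lower. Members of a list that were not called at ZT6 are named here as examples chosen after their values were seen. Of 23 sugar-responsive and glucose genes, 1 was higher and 1, Gys2, was lower (list median log2 fold change -0.15, all genes 0). G6pc, the glucose-6-phosphatase that releases glucose from the liver, stood at 16.2, 11.5, 18.2 and 35.1 CPM in Hep-Bmal1WT and 105, 123, 97.5 and 93.1 CPM in Hep-Bmal1KO livers, 5.16-fold higher (log2 fold change 2.37 ± 0.45, adjusted p = 0.00455). Pck1, Fbp1 and Ppargc1a, which act in the same pathway of glucose synthesis, had log2 fold changes of 0.24, 0.27 and 0.24 and were not called. Pdk4, the kinase that shuts off pyruvate dehydrogenase, was the 1 called gene of 29 in the list of fatty acid oxidation and PPAR-alpha targets, at 0.758, 1.3, 2.56 and 1.6 CPM against 8.49, 13.3, 8.54 and 5.68 CPM (5.76-fold, adjusted p = 0.021). The median of that list was -0.020 at ZT6, and Cpt1a, which brings fatty acids into mitochondria, had a log2 fold change of -0.02.

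The diet withholds choline, and of 21 genes of choline, methionine and one-carbon metabolism 2 were higher and none lower (list median -0.018), beside 0.47% and 0.238% of all genes. Chka, the choline kinase that opens phosphatidylcholine synthesis, had 27.1, 39.95, 38.8 and 27.2 CPM in Hep-Bmal1WT and 156, 115, 107 and 109.6 CPM in Hep-Bmal1KO livers, 3.67-fold higher (log2 fold change 1.87 ± 0.37, adjusted p = 0.00663). Pemt, the methylation route to phosphatidylcholine, had a log2 fold change of -0.05 ± 0.15. Without the 3 libraries against their label this list had 3 higher and 1 lower gene.

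In lipid metabolism the calls were again few. Acacb, the acetyl-CoA carboxylase of the mitochondrial surface, was the 1 lower gene of 16 in the list of lipogenesis and desaturation, at 8.79, 14.6, 8.31 and 3.36 CPM against 1.05, 2.01, 4.19 and 3.25 CPM (log2 fold change -1.76 ± 0.45, adjusted p = 0.0478). The lowest wild-type liver lay within the knockout range, and the call held in 8 of 18 alternatives. Thrsp, a gene that promotes lipogenesis, was not called in the full set (-2.64 ± 0.74, adjusted p = 0.0861) and was called without the 3 libraries. Fasn and Srebf1 had log2 fold changes of -0.80 ± 0.44 and -0.45 ± 0.24. Hilpda, a lipid droplet protein that inhibits lipolysis, was 1.81-fold higher (adjusted p = 0.0412) and the 1 called gene of 28 in the list of triglyceride, VLDL and lipid droplet genes.

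Insig2 was the 1 called gene of 20 in the list of sterol control, transport and efflux. None of the 21 sterol synthesis enzymes was called at ZT6 by edgeR, with or without the 3 libraries, or by DESeq2. An unadjusted p under 0.05 was reached by 4 of the 21, against 10.3% of all genes. The log2 fold changes of the 21 ran from -0.59 to 0.60 with a median of -0.14. Sqle and Dhcr7, enzymes of its middle and last steps, had -0.10 ± 0.39 and -0.59 ± 0.20. Of the 11 carboxylesterases, which hydrolyze esters and lipids in hepatocytes, none was called at ZT6 by edgeR or DESeq2, and 7 had an unadjusted p under 0.05, against 10.3% of all genes. A negative value was found in 10 of 11 at ZT6 and 10 of 11 at ZT18 (median log2 fold changes -0.77 and -0.55). Ces1d had -1.53 ± 0.59 at ZT6 and -1.43 ± 0.58 at ZT18, and 6 of the 11 genes did not overlap between the genotypes at ZT6, against 7.69% of all genes.

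Genes expressed by ductular cells and in injured liver had the second highest median of the 30 pathway lists, 1.44, with 3 of 18 called higher and none lower, beside 0.47% and 0.238% of all genes. An unadjusted p under 0.05 was reached by 12 of the 18 at ZT6 and 2 at ZT18, against 10.3% and 7.94% of all genes. DESeq2 called 5 of the 18 at ZT6 and 0 at ZT18. Sox9, a transcription factor of biliary cells and injured hepatocytes, stood at 8.18, 8.45, 6.23 and 9.93 CPM in Hep-Bmal1WT and 28.4, 25.8, 19.4 and 24.5 CPM in Hep-Bmal1KO livers (2.99-fold, adjusted p = 0.000991), and its call held in all 18 alternatives. Sox4, a related factor, had 6.21, 4.22, 6.23 and 6.08 CPM against 27.7, 28.6, 15.1 and 17.05 CPM (3.88-fold, adjusted p = 0.034). The epithelial adhesion gene Epcam had 3.94, 2.6, 5.91 and 2.4 CPM against 32.02, 21.7, 7.03 and 9.34 CPM (4.73-fold, adjusted p = 0.0397). The call of Sox4 held in 10 and that of Epcam in 8 of 18 alternatives, and both were lost in males alone, in females alone and when any of the 4 Hep-Bmal1WT livers or Hep-Bmal1KO replicate 1 or 2 was left out. The genotypes did not overlap in these 3 genes, but the 2 knockout males had more Sox4 and Epcam than the 2 knockout females. In males the log2 fold change of Epcam was 3.03 and in females 0.99, with 2 livers on each side, and the difference between the sexes was not tested. Krt19, Krt7 and Tspan8, which mark cholangiocytes, had log2 fold changes of 1.29 ± 0.85, 1.21 ± 0.59 and 2.25 ± 0.71 and were not called. The 5 cholangiocyte markers summed to 6.52 to 15.0 CPM in Hep-Bmal1WT and 14.2 to 68.99 CPM in Hep-Bmal1KO livers at ZT6, overlapping, with a higher mean for 5 of 5 markers and none at 0 in all libraries. At ZT18 the ranges were 11.9 to 53.2 and 21.6 to 39.9. Of Sox9, Sox4 and Epcam, Sox4 alone did not overlap between the genotypes at ZT18. Its log2 fold change there was 1.14 ± 0.43 (95% interval 0.27 to 2.00), and it was not called (adjusted p = 0.442). In whole liver, more cells of a type and more RNA per cell cannot be told apart, and the part of cell numbers in these results was not tested.

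The extracellular matrix and stellate cell list had a median log2 fold change of 0.67 at ZT6 and 0.23 at ZT18, and 27 of 28 genes were above 0 at ZT6. Lox, the lysyl oxidase that cross-links collagen, was the 1 called gene, at 2.73, 3.9, 0.799 and 0.961 CPM against 12.2, 11.01, 3.35 and 2.44 CPM (log2 fold change 1.79 ± 0.46, adjusted p = 0.0463), with overlap between the genotypes and a call in 8 of 18 alternatives. Col1a1 and Col3a1, the fibrillar collagens, had 1.29 ± 0.45 and 1.07 ± 0.35 and were not called. The collagen gene Col5a3, outside this list and picked after the values were seen, was among the genes called at ZT6. Without the 3 libraries 6 of the 28 were higher (Lox, Col5a2, Vim, Bgn, Fbn1 and Sparc). An unadjusted p under 0.05 was reached by 21 of the 28 at ZT6 and 3 at ZT18, against 10.3% and 7.94% of all genes. DESeq2 called 9 of the 28 at ZT6 and 0 at ZT18. The 7 markers of stellate cells and fibroblasts summed to 734 to 873 CPM in Hep-Bmal1WT and 892 to 1495 CPM in Hep-Bmal1KO livers at ZT6 without overlap, and all 7 had a higher mean. Their part in the results was not tested. Summed markers of sinusoidal endothelium, Kupffer cells, lymphocytes, neutrophils and erythroid cells overlapped between the genotypes, and none of these genes was called.

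**Figure D3:**
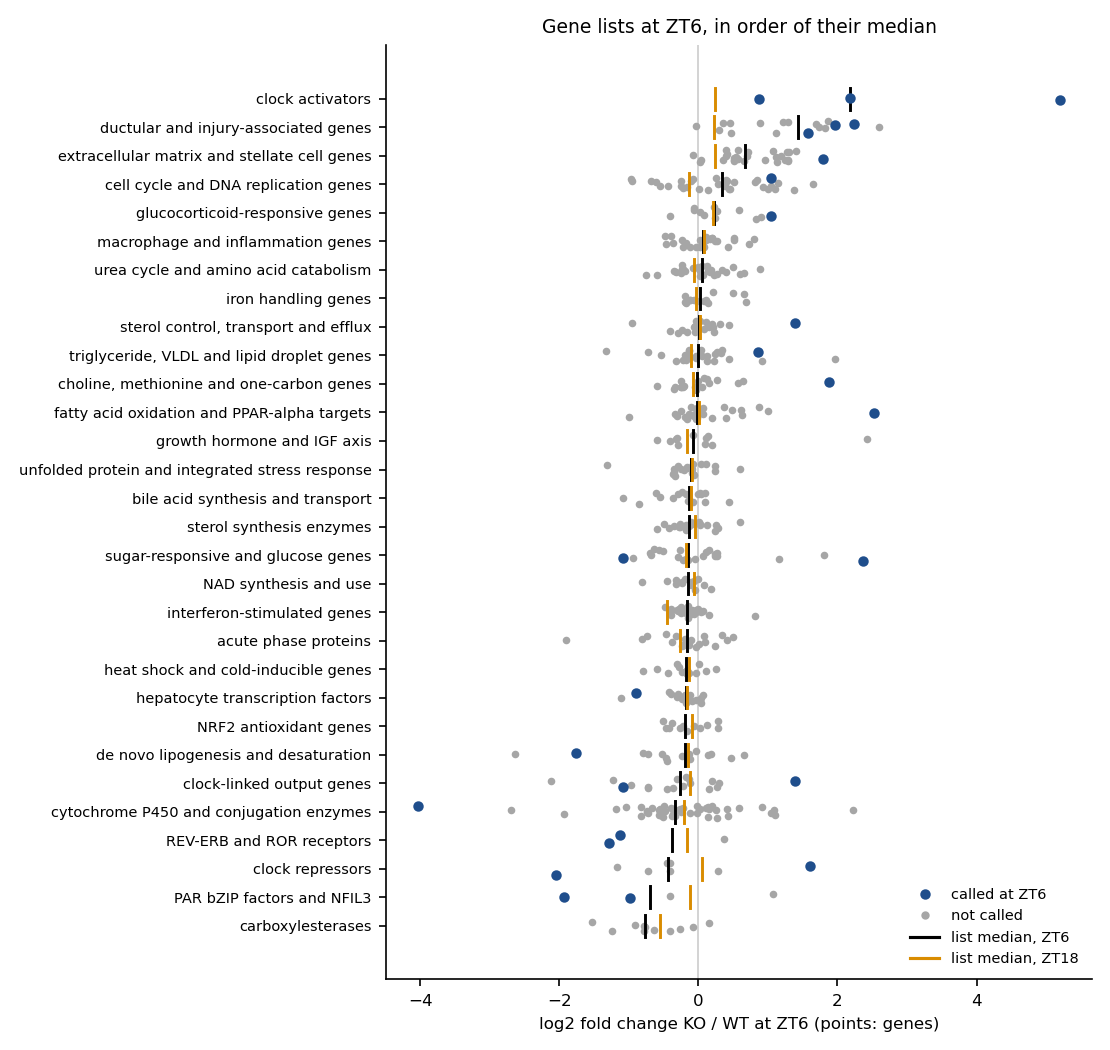
Log2 fold change at ZT6 (x axis) of the reported genes of 30 lists (y axis, ordered by median), blue where the gene was called, with the list median at ZT6 (black) and at ZT18 (orange). The black bars of the clock activators, ductular and extracellular matrix lists lie at 2.18, 1.44 and 0.67, and their orange bars at 0.24, 0.23 and 0.23.

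Cdkn1a, the cell cycle inhibitor p21, was the 1 called gene of 32 in the cell cycle list and of 12 in the glucocorticoid-responsive list. It stood at 26.5, 27.8, 23.98 and 19.7 CPM in Hep-Bmal1WT and 58.9, 55.4, 48.6 and 39.8 CPM in Hep-Bmal1KO livers (2.07-fold, adjusted p = 0.000982). The replication gene Mcm10, called lower at ZT6, lies outside the cell cycle list. The median log2 fold change of that list at ZT6 was 0.33, with 20 genes above 0 and 12 below. Cebpa, a transcription factor of hepatocyte identity, was the 1 lower gene of 19 hepatocyte factors, with 149.6, 143, 159.8 and 111 CPM against 52.4, 65.5, 92.6 and 91.6 CPM (1.87-fold lower, adjusted p = 0.0293), and 15 of the 19 had a negative log2 fold change (median -0.18). No gene was called at ZT6, in the 48 libraries, in the lists of bile acid synthesis, urea cycle and amino acid catabolism, NAD, growth hormone and IGF, unfolded protein, heat shock, NRF2, acute phase, interferon, macrophage and iron genes. Between 1 and 6 genes of each of these lists had an unadjusted p under 0.05, against 10.3% of all genes. These were 6 of 29 urea cycle and amino acid, 5 of 20 acute phase, 5 of 26 macrophage and 3 of 14 NAD genes. They were 2 of 11 growth hormone, 2 of 12 NRF2, 2 of 14 heat shock, 2 of 20 unfolded protein and 2 of 26 interferon genes. The bile acid list had 1 of 18 and the iron list 1 of 14. DESeq2 called at most 1 gene in each of these lists, and without the 3 libraries edgeR called at most 2. Of 18 clock-linked output genes Insig2 was higher and Gys2 lower, while Rgs16, Usp2 and Wee1 had -2.13 ± 0.65, -1.23 ± 0.36 and -0.97 ± 0.32 and were not called.

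The same contrast at ZT18 called 0 of 15548 genes in edgeR, although 1234 genes (7.94%) had an unadjusted p under 0.05, against 1594 (10.3%) at ZT6. DESeq2 called 32 genes at ZT18. In edgeR 12 genes were called without Hep-Bmal1KO replicate 2 of ZT18, 10 without Hep-Bmal1KO replicate 4 and 1 without Hep-Bmal1WT replicate 1. It called 36 (0.232%), 20 higher (0.129%) and 16 lower (0.103%), without the 3 libraries against their label. The absence of calls does not show that the genotypes were alike at ZT18. Of the 110 genes of ZT6, 93 kept the sign of their difference at ZT18, 61 of the 73 higher and 32 of the 37 lower genes, and 108 of 110 had a smaller log2 fold change in size. The medians went from 1.44 to 0.30 in the higher and from -0.90 to -0.39 in the lower genes. The genes were chosen by their difference at ZT6, so the sizes at the 2 times are not compared on equal terms. At ZT18 the genotypes did not overlap in 28 of the 110 genes, 26 of them in the direction of ZT6, against 6.62% of all genes.

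**Figure D4:**
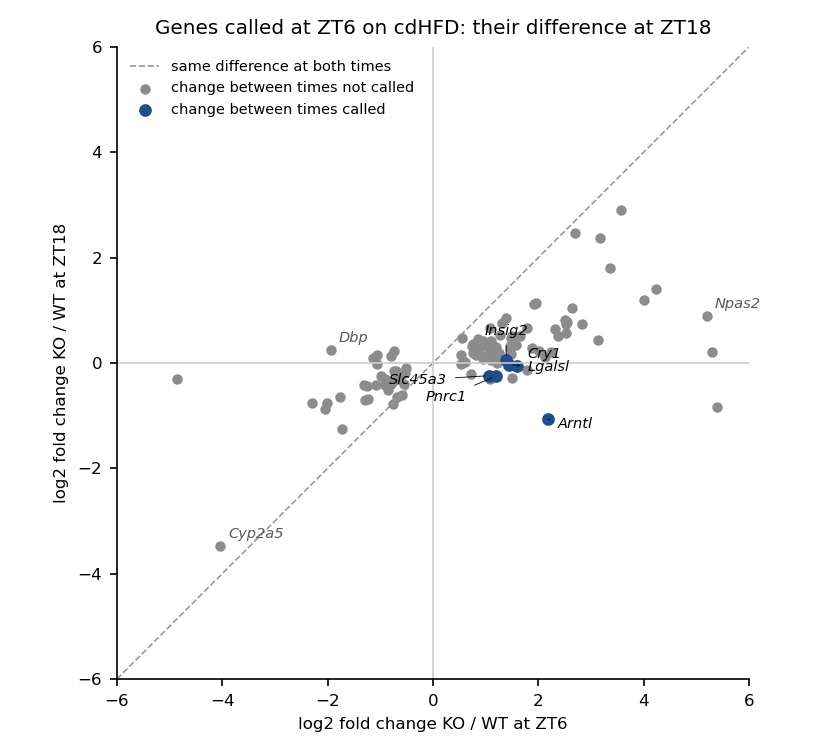
Log2 fold change at ZT18 (y axis) against that at ZT6 (x axis) for the genes called at ZT6 and reported here, with genes of a called change in blue and the line of equal difference dashed. Most points lie between the dashed line and 0 on the y axis, Cyp2a5 lies near the line at -4.03 and -3.48, and Arntl lies at 2.18 and -1.07.

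A difference that is present at one time and not at the other needs a test of the change itself. The ZT6 difference minus the ZT18 difference passed that test in 7 genes (0.045% of 15548), and all 7 were higher at ZT6 and not called at ZT18. The 6 described here were Arntl (above), Pnrc1, Slc45a3, Insig2, Lgalsl and Cry1. Pnrc1 had 243, 301, 313 and 327 CPM in Hep-Bmal1WT and 247, 286, 257 and 206 CPM in Hep-Bmal1KO livers at ZT18, a log2 fold change of -0.25 ± 0.18 (95% interval -0.60 to 0.10), and its change of 1.45 ± 0.25 (adjusted p = 0.00467) held in 24 of 26 alternatives. Insig2 had 328, 396, 387 and 363 CPM and 308, 335, 414 and 484 CPM at ZT18, with overlap, and a log2 fold change of 0.07 ± 0.18 (-0.31 to 0.44). The change of Insig2 was 1.32 ± 0.26 (adjusted p = 0.0245) and held in 12 of 26 alternatives.

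Cry1 stood at 35.7, 36.9, 38.4 and 33.2 CPM in Hep-Bmal1WT and 31.2, 35.2, 42.4 and 29.4 CPM in Hep-Bmal1KO livers at ZT18, so that the 3.03-fold excess of ZT6 had given way to a log2 fold change of -0.06 ± 0.23 (-0.52 to 0.40). Its change was 1.66 ± 0.35 (adjusted p = 0.0492), close to the threshold, and held in 8 of 26 alternatives. Lgalsl had 40.7 to 51.1 CPM against 42.6 to 54.7 CPM at ZT18 and a change of 1.47 ± 0.30 (adjusted p = 0.0271, called in 11 of 26 alternatives). Slc45a3 had 18.8 to 30.5 CPM against 18.95 to 24.7 CPM and a change of 1.31 ± 0.25 (adjusted p = 0.0154, 18 of 26). In these 6 genes the change kept its sign under every alternative. Leaving out single libraries gave between 2 and 8 genes with a called change. It gave 4 without Hep-Bmal1WT replicate 1 or Hep-Bmal1KO replicate 4 of ZT6 and without Hep-Bmal1WT or Hep-Bmal1KO replicate 4 of ZT18. It gave 3 without Hep-Bmal1WT replicate 2 or Hep-Bmal1KO replicate 3 of ZT6 and without Hep-Bmal1WT replicate 3 of ZT18. It gave 2 without Hep-Bmal1WT replicate 3 or Hep-Bmal1KO replicate 1 of ZT6 and without Hep-Bmal1WT replicate 2 or Hep-Bmal1KO replicate 1 of ZT18.

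Without the 3 libraries against their label the change was called in 14 genes (0.09%), 10 with a positive change (Hep-Bmal1KO relatively higher at ZT6) and 4 with a negative one, and the 7 genes were among them. Npas2, Clpx, Dbp and Coq10b then also passed, with adjusted p of 0.000296, 0.000301, 0.0263 and 0.0365, where the full set gave 0.69, 0.149, 0.0865 and 0.113. Over the 26 alternatives these adjusted p ranged up to 1 in each of the 4 genes. Dbp shows the pattern in the raw values. Its wild-type CPM of 183 to 229.6 at ZT6 was 7.86 to 11.9 at ZT18, and the knockout livers had 9.08 to 17.5 CPM there, so the groups overlapped at the trough of the gene. The log2 fold change of Dbp at ZT18 was 0.25 ± 0.36, with an interval of -0.48 to 0.97.

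For the remaining 103 genes neither a difference at ZT18 nor a change between the times was shown. Their intervals tell how far a difference at ZT18 could reach. In 25 of the 110 genes the 95% interval at ZT18 lay within a 1.5-fold difference either way, in 66 within 2-fold, and in 44 it reached 2-fold or more. Leo1 (0.05 ± 0.18, -0.31 to 0.41), Dtx4 (0.11 ± 0.18, -0.26 to 0.48) and Clpx (0.04 ± 0.23, -0.42 to 0.50) had values near 0 at ZT18. Mtnr1a (0.74 ± 0.32, 0.09 to 1.38), G6pc (0.52 ± 0.41, -0.30 to 1.35) and Epcam (0.20 ± 0.50, -0.82 to 1.22) had intervals that reached past a 2-fold difference. Desi2 (0.43 ± 0.13, 0.16 to 0.69) was higher in every Hep-Bmal1KO liver at ZT18 as well. It was not called there in the full set (adjusted p = 0.272) but was called by edgeR in the 8 libraries of ZT18 alone (adjusted p = 0.0444). Chka had 132, 154, 169 and 179.7 CPM in Hep-Bmal1WT and 171, 188, 193 and 225 CPM in Hep-Bmal1KO livers at ZT18, with overlap and a log2 fold change of 0.29 ± 0.35, and its change of 1.59 ± 0.51 had an adjusted p of 0.69.

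Some genes differed by about as much at ZT18 as at ZT6. Cyp2a5 stood at 531, 538, 425 and 349 CPM in Hep-Bmal1WT and 39.8, 38.9, 34.5 and 51.8 CPM in Hep-Bmal1KO livers at ZT18 without overlap, and its log2 fold change of -3.48 ± 0.78 (-5.06 to -1.91) missed the threshold in the full set (adjusted p = 0.0799). Its SE at ZT6 fell from 0.79 to 0.38 without the 3 libraries against their label, and Cyp2a5 was then called at both times (adjusted p = 1.21e-06 at ZT18, range over 18 alternatives 1.61e-08 to 0.585). In that set 21 genes were called at both times in the same direction, and the others named here were picked after their values were seen. Tox2, a transcription factor, had 0.758, 0.162, 0.48 and 0.16 CPM in Hep-Bmal1WT and 6.01, 5.77, 4.52 and 3.25 CPM in Hep-Bmal1KO livers at ZT6, and 0.318, 0.627, 1.04 and 1.49 against 4.27, 3.7, 12.1 and 6.78 at ZT18. Hebp2, a heme-binding gene, had 0.606 to 1.92 against 7.54 to 12.02 CPM at ZT6 and 0.627 to 1.9 against 6.09 to 9.61 CPM at ZT18, and Tinag 0.32 to 1.06 against 2.57 to 6.85 and 0.318 to 1.9 against 3.31 to 7.37. These 3 genes were low in every wild-type liver at both times and higher in every knockout liver. Khk, the ketohexokinase that phosphorylates fructose, had log2 fold changes of -0.95 and -0.97 at ZT6 and ZT18, and Gbe1, the glycogen branching enzyme, -0.90 and -0.92. The glycolytic genes Gapdh and Eno1 had -0.58 and -0.60, and -0.49 and -0.62. Lpl, the lipoprotein lipase, was higher at both times, 0.91 and 0.93, as was Agxt, the peroxisomal alanine-glyoxylate aminotransferase, 0.88 and 0.77.

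The levels at both times, set side by side, show how each genotype differed between the times. This is a description, since the livers of ZT6 also entered the test that chose the genes. That choice favours genes whose wild-type mean at ZT6 was extreme, so counts of this kind were in part bound to follow. The counts over all genes tested are therefore no equal comparison, and the counts given here are no separate support. In Hep-Bmal1WT livers all 73 higher genes had a greater mean at ZT18 than at ZT6, by a median log2 change of 1.28, against 7737 of the 15548 genes tested. In Hep-Bmal1KO livers 48 of the 73 did, by a median of 0.18, and the knockout livers at ZT6 stood nearer their own level of ZT18. For 72 of the 73 genes the knockout mean at ZT6 lay nearer the wild-type mean of ZT18 than that of ZT6, against 6865 of all genes. Of the 37 lower genes, 4 had a greater wild-type mean at ZT18 than at ZT6, with medians of -0.60 in Hep-Bmal1WT and 0.0084 in Hep-Bmal1KO livers, and 29 of 37 knockout means at ZT6 lay nearer the wild-type mean of ZT18. Cry1 changed by 2.44 ± 0.26 (log2, SE) from ZT6 to ZT18 in Hep-Bmal1WT and by 0.78 ± 0.24 in Hep-Bmal1KO livers, Insig2 by 1.70 ± 0.19 and 0.38 ± 0.18, and Clpx by 1.81 ± 0.24 and 0.42 ± 0.23.

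The other 4 times of the diet place these values on the day. The excess of Cry1 in Hep-Bmal1KO livers was also seen at ZT2, 21.5 ± 5.24 CPM against 4.73 ± 1.22 (SD, n = 4 each), and at ZT10 the means were 16.9 ± 3.89 and 23.6 ± 12.6. The wild-type mean of ZT10 holds the library against its label, at 41.9 CPM, and the other 3 livers had 13.7 to 21.2 CPM. Insig2 stood at 344 ± 23.9 CPM in Hep-Bmal1KO and 194 ± 66.2 CPM in Hep-Bmal1WT livers at ZT2, and at 432 ± 14.05 and 558 ± 114 at ZT22, where the wild-type mean was the greater. Arntl in Hep-Bmal1WT livers ran from 1.08 CPM at ZT6 to 25.1 CPM at ZT22, and in Hep-Bmal1KO livers from 2.89 CPM at ZT10 to 10.8 CPM at ZT18. Dbp had its greatest wild-type mean at ZT6, 207 ± 18.99 CPM, and its greatest knockout mean at ZT10, 65.9 ± 2.32 CPM. The wild-type value of Dbp at ZT10 was 55.5 ± 22.97 CPM and includes 1 library against its label, as do the ZT14 means of both genotypes. These 4 times were not tested here.

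**Figure D5:**
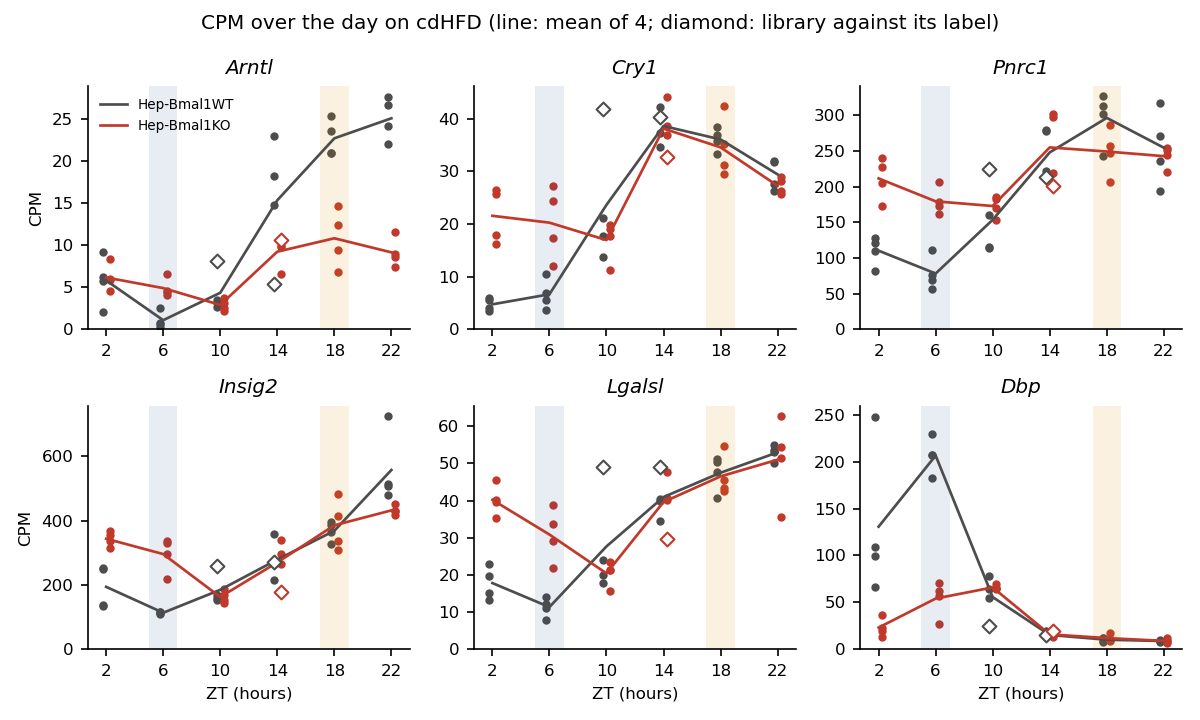
CPM (y axis, from 0) of 6 genes against ZT (x axis, hours) in each cdHFD liver, with lines through the means of 4 (grey: Hep-Bmal1WT, red: Hep-Bmal1KO), shading at ZT6 and ZT18 and diamonds for the 3 libraries against their label. At ZT6 the red points of Cry1, Pnrc1, Insig2 and Lgalsl lie above the grey ones and those of Dbp below, and of the 6 genes Arntl alone does not overlap at ZT18.

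All 110 genes had the same sign in males and in females when each sex was fitted alone with the other times of that sex, and that sign was the one of the full set. With 2 livers a side, 123 genes were called in males and 57 in females, and 47 and 26 of the 110 were among them. With sex as a term in the fit 153 genes were called, all 110 among them. Leaving out 1 of the 8 libraries gave 33 genes (without Hep-Bmal1WT replicate 4) to 120 genes (without Hep-Bmal1KO replicate 3), and 51, 54 and 61 without Hep-Bmal1WT replicates 1, 2 and 3, 41 and 50 without Hep-Bmal1KO replicates 1 and 2, and 104 without replicate 4. All 110 kept their direction in each of these fits.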

How the data were processed

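RNA of whole livers was sequenced by BRB-seq, which reads the 3′ portion of transcripts of pooled, barcoded samples. Per the labels and the methods, the authors separated the barcodes with BRB-seq tools, aligned reads to mm10 with STAR and counted them per gene with HTSeq. featureCounts and DESeq2 are also named in the submitters' processing notes, versions are not given in the sources used here, and collapse of molecular identifiers is not stated. The authors deposited raw counts per gene for the 96 libraries. The 5 rows that name no gene took 22.6% to 29.4% of the counts of the cdHFD libraries and were left out. Counts were fitted here with edgeR 4.0.16 (R 4.3.3, TMM scaling, quasi-likelihood test) over the 48 cdHFD libraries in 12 groups of 4, for the 15548 genes with at least 100 counts over all libraries. The contrasts were Hep-Bmal1KO minus Hep-Bmal1WT at ZT6, at ZT18, and the first minus the second, each adjusted by Benjamini-Hochberg over all genes tested. A gene was called where the adjusted p was under 0.05, and errors of fold changes are SE. The contrasts at ZT6 and ZT18 share no library but share 1 estimate of the spread, and the ZT6 libraries enter both the ZT6 contrast and the change. CPM are TMM-scaled, and levels are not compared between genes. Depth was 5872198 to 9170873 counts per library in the 16 libraries compared, which leaves wide errors for genes of a few CPM.

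Alternatives were DESeq2 1.42.0, its size factors, other filters, other library sets, sex as a term, each sex alone and each library left out. Leaving out 3 libraries of ZT10 and ZT14 was chosen after seeing the data. The scripts were tested on simulated counts. Coordinates and 14841 of the symbols were matched to RefSeq on GRCm38.p6, the same build as mm10. The comparison and the gene lists were chosen with earlier results of these data known. Named were called list members (at most 4 a list), all clock genes, the 10 genes in each direction of smallest p at ZT6 that differed by a log2 of 1 or more, the 8 in each direction of smallest p for the change among genes called at ZT6 and not at ZT18, and genes called at both times (at most 5 in each direction, and at most 5 of opposite direction). Predicted genes were counted but not named. Other names were chosen after their values were seen, as stated beside them. Promoter motifs were not analysed here, and a few genes that the naming rule or the lists include are not reported here but stay in all counts and medians.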

Additional observations from a re-analysis of the deposited data

Results flagged for a closer look

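The difference between Hep-Bmal1KO and Hep-Bmal1WT livers was itself different at ZT6 and at ZT18 in 6 genes named here, by edgeR's test of the change over all genes with Benjamini-Hochberg adjustment. The log2 fold change at ZT6 minus that at ZT18 was 3.25 in Arntl, 1.66 in Cry1, 1.47 in Lgalsl, 1.45 in Pnrc1, 1.32 in Insig2 and 1.31 in Slc45a3.

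Single livers stood apart from the other 3 of their group in 12 of 196 groups of 4 examined, measured as the gap to the nearest liver divided by the range of the group. Chance flags about 1 in 20 groups. In Hep-Bmal1KO livers of ZT6, Gys2 was low in replicate 1 (48.7 CPM, others 74.9 to 75.9, gap 0.963 of the range) and Chka was high in the same liver (156 CPM, others 107 to 115, 0.849), as was Tbc1d16 (12.7 CPM, others 11.1 to 11.4, 0.84). Desi2 was low in replicate 2 (67.3 CPM, others 73.8 to 74.5, 0.905), and Bhlhe40 was high in replicate 4 (38.3 CPM, others 28.6 to 29.8, 0.877). In Hep-Bmal1WT livers of ZT6, replicate 3 was low for Tef (75.1 CPM, others 84.1 to 84.6, 0.945) and Bhlhe40 (31.3 CPM, others 45.6 to 48.6, 0.8293), and replicate 2 was low for Sox4 (4.22 CPM, others 6.08 to 6.23, 0.925). At ZT18, Leo1 was low in Hep-Bmal1KO replicate 1 (17.4 CPM, others 22.0 to 22.6, 0.882) and Arrdc3 high in replicate 4 (79.2 CPM, others 30.7 to 38.04, 0.849). In Hep-Bmal1WT livers of ZT18, Cry2 was high in replicate 3 (25.8 CPM, others 12.7 to 14.5, 0.868) and Bhlhe41 in replicate 1 (2.38 CPM, others 0 to 0.314, 0.868).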

How the results depend on the processing

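The direction of the 110 genes at ZT6 was kept in every alternative that tested them, but the counts of calls moved. Counts are given in the order ZT6, ZT18, change between the times, ZT6 genes with a called change that were not called at ZT18, and genes called at both times in the same direction, beside 110, 0, 7, 7 and 0 in the full set. DESeq2 gave 223, 32, 14, 14 and 9, and the 8 libraries of each time alone 372, 139, 30, 25 and 54. All 96 libraries gave 38, 2, 0, 0 and 0. Without a filter beyond 1 count the values were 107, 7, 4, 4 and 3, with sex as a term 153, 13, 8, 8 and 3, in males 123, 2, 5, 5 and 1, and in females 57, 41, 3, 3 and 6. Without the 3 libraries against their label, chosen after seeing the data, they were 219, 36, 14, 12 and 21. Leaving out 1 library in turn gave 33 to 120 genes at ZT6, 0 to 12 at ZT18, 2 to 8 with a called change, 1 to 8 of these not called at ZT18, and 0 to 1 called at both times. The cause of these movements was not tested. DESeq2's size factors and a filter of 10 counts in 4 libraries left all 5 counts within 1.5 times, and no result reversed. The label check by the 20 other genes alone also found 3 libraries. No paired analysis was possible because the replicate numbers were given in accession order and do not pair mice across genotypes. Some genes of a few CPM had wide errors at ZT6, such as Npas2 (SE 1.10) and Arntl (0.46). Cyp2a5 had an SE of 0.79, although its mean in Hep-Bmal1WT livers at ZT6 was 1132 CPM. Without the 3 libraries against their label the SE of Npas2 was 0.54 and that of Cyp2a5 0.38. At ZT18, 44 of the 110 intervals reached a 2-fold difference.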

Other observations

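Of the 26 interferon-stimulated genes, 22 had a negative log2 fold change at ZT6 and 25 at ZT18, with medians of -0.16 and -0.45, beside medians of 0 and 0.015 over all genes tested. None was called by edgeR at either time, and DESeq2 called 1 at ZT6 and 0 at ZT18. An unadjusted p under 0.05 was found in 2 at ZT6 and 12 at ZT18, against 10.3% and 7.94% of all genes. Of the 32 cell cycle and DNA replication genes, 16 had an unadjusted p under 0.05 at ZT6 and 4 at ZT18, against 10.3% and 7.94% of all genes. The list medians were 0.33 and -0.13. A positive log2 fold change was found in 20 and a negative one in 12 at ZT6, and in 13 and 19 at ZT18.

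Reads of 5 digestive enzyme genes of the exocrine pancreas (Prss2, Cpa1, Pnlip, Cela3b and Sycn), a set chosen after the values were seen, summed to 418 CPM in Hep-Bmal1KO replicate 1 and 115 CPM in replicate 3 at ZT18. The other Hep-Bmal1KO livers of that time had 0.478 and 0.542 CPM. The 4 Hep-Bmal1WT livers of ZT18 had 0 to 0.519 CPM, and no liver of ZT6 had more than 1.36 CPM.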
